A study of Homo sapiens with 56 samples.

Results

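The genes described here are the cytokine feedback genes SOCS1, SOCS2, SOCS3, SOCS4, SOCS5, SOCS6 and CISH and the kinase genes PIM1, PIM2 and PIM3. They are 10 of the 19775 genes that have a probe set of their own on the array, and they were taken by name, through the 25 probe sets that carry 1 of these symbols and no other. The 56 Affymetrix arrays hold RNA of HuT-102, MJ, MY-LA and HuT-78, which are 4 established human lines of a skin-homing T-cell lymphoma (cutaneous T-cell lymphoma). The wells were untreated or held cobomarsen (MRG-106), an oligonucleotide that blocks miR-155, a microRNA of lymphoid cells, at a concentration that the sources used here do not give. RNA of HuT-102, MJ and MY-LA was taken at day 4 and at day 8 and that of HuT-78 at day 8, with 4 arrays in each of the 14 groups. Each treated group was set against untreated wells of its own line and day, and no well with a control oligonucleotide was analysed here. Each line stands for 1 source of cells, and at the passage 96 h after dosing every well was diluted by the factor found for the untreated ones.

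Cytokine receptors signal through Janus kinases, which phosphorylate STAT transcription factors, and STATs switch on SOCS and CISH genes, whose proteins bind the receptor or kinase and damp the signal. The SOCS box of these proteins recruits an elongin and cullin ubiquitin ligase. PIM genes are also switched on by STATs, but their kinases promote survival and growth in lymphoid cells. In cutaneous T-cell lymphoma STAT3 and STAT5 signalling is often active, and SOCS1 is a published target of miR-155.

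The sequence below is mature miR-155-5p from RefSeq (GRCh38.p14, chr21:25573983-25574006, plus strand), shown because cobomarsen inhibits it, with the seed, bases 2 to 8, in capitals.
hsa-miR-155-5p: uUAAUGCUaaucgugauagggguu
The STAT motif TTCNNNGAA reads the same on both strands, and it was searched for in the 250 bases before the start of each gene in RefSeq (GRCh38.p14). Windows were found for 8 of the 10 members, in all but SOCS2 and SOCS5. CISH held 4 matches, which do not overlap, and the other 7 genes with a window held none. Over all genes 6.57% of 35116 such windows held at least 1 match, and 5 windows, the one of CISH among them, held at least 4. The spacing with 4 bases between TTC and GAA had no match in any member window and was present in 5.38% of all windows. The CISH window (chr3:50611775-50612024, minus strand) is printed because CISH was called lower in more comparisons than any other member, and its capitals mark the matches.
CISH: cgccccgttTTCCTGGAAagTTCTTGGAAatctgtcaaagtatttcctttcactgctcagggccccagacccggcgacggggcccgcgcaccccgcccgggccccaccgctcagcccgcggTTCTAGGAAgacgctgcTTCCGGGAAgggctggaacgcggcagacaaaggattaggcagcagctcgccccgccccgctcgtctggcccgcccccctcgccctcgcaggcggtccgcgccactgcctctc
A match is a description of these letters and not a binding site.

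The values are the authors' MAS5 signals, a linear array brightness scaled to the same trimmed mean on each array. A change is a difference of log2(signal + 16) and carries its standard error after the ± sign, while a signal carries its standard deviation (SD, n = 4). A gene was tested where it averaged at least 73.9 in the arrays being compared, the median signal over all probe sets and arrays, and a call means an adjusted p from limma below 0.05. The spread was pooled over all 14 groups. Since the labels do not say whether the 4 arrays of a group were separate cultures, a p-value here covers the variation between arrays, which may be technical. Between arrays of 1 group the log2 values correlated at 0.957 to 0.980. All 8 T cell markers measured lay above a signal of 73.9 in HuT-102 and MJ, 6 in MY-LA (CD4 and LCK below) and 7 in HuT-78 (CD2 below). Of 4 B cell markers 2 did in HuT-102, MJ and MY-LA and 3 in HuT-78. Of 4 monocyte and macrophage markers 2 did in HuT-102, MJ and MY-LA and 1 in HuT-78. Natural killer markers did so in 0 or 1 of 3 and fibroblast markers in 0 to 2 of 4. This signal alone thus does not tell cell types apart. The numbers in the sample titles fall in 2 ranges, one for HuT-102 and MJ and the other for MY-LA and HuT-78, so the range and the line cannot be told apart. In these bulk samples fewer expressing cells and less RNA per cell cannot be told apart either.

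Before treatment the lines held these genes at very different levels. SOCS2, an inhibitor of growth hormone and other STAT5 signals, was highest in untreated HuT-102 at day 8, at 12337 ± 424. It stood at 1137 ± 70.8 in MY-LA, 853 ± 26.1 in HuT-78 and 679 ± 150.3 in MJ, and each of the 6 pairs of lines differed. MJ and HuT-78 overlapped and changed order when all probe sets of SOCS2 were averaged (0.16 in place of -0.35), and MJ and MY-LA were then not called different (-0.24 in place of -0.75, adjusted p = 0.0795). SOCS1, which inhibits the Janus kinases directly, stood at 3988 ± 308 in MY-LA, 3694 ± 345 in MJ and 2948 ± 145 in HuT-102, and at 9.03 ± 7.46 in HuT-78. SOCS3, which binds cytokine receptors such as gp130, stood at 1484 ± 198 in MY-LA, 1276 ± 186 in HuT-102 and 1154 ± 85.6 in MJ, against 20.3 ± 8.71 in HuT-78. HuT-78 thus had both genes below the median of all values, and MY-LA and MJ overlapped and were not called different in either gene (adjusted p = 0.590 for SOCS1 and 0.0596 for SOCS3, limma). For SOCS3 that pair was called without array 4 of untreated MJ (adjusted p = 0.0497) and without array 2 of untreated MY-LA (0.0382).

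CISH, whose protein competes with STAT5 for receptor docking sites, was highest in untreated MY-LA at day 8, at 9908 ± 917. HuT-102 followed at 6730.0 ± 481, HuT-78 at 3246 ± 329 and MJ at 2197 ± 139.7, with no overlap between neighbours. PIM1 was lowest in HuT-102, with 922 ± 66.4 against 2131 ± 193 in MJ, 1929.6 ± 289 in HuT-78 and 1810.4 ± 167 in MY-LA. The levels of the last 3 lines overlapped. PIM2 was highest in MY-LA (4947 ± 1189) and PIM3 in MJ (5707 ± 401), and for both genes HuT-102 and HuT-78 overlapped. SOCS4 was lowest in HuT-78 (719 ± 96.7, against 1509.7 ± 139 to 1852 ± 207 elsewhere), and SOCS5 was between 504 ± 15.6 and 574 ± 11.98 in all 4 lines. SOCS6 reached 139 ± 22.1 in HuT-102 and 87.9 ± 28.2 in MJ, and 13.6 ± 11.9 and 11.3 ± 12.4 in MY-LA and HuT-78.

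Over the 4 lines 8 of 9 members tested differed at day 8 without treatment (limma moderated F-test), all but SOCS5, where 90.9% of all genes tested did. SOCS5 had an adjusted p of 0.216 in that test, but with averaged probe sets it was called as well (adjusted p = 3.80e-04). Between pairs of lines the members called were 5 of 10 for HuT-102 and MJ (57.4% of all genes), 6 of 9 for HuT-102 and MY-LA (68.9%) and 6 of 9 for HuT-102 and HuT-78 (73.6%). They were 4 of 9 for MJ and MY-LA (65.3%), 7 of 9 for MJ and HuT-78 (69.1%) and 7 of 9 for MY-LA and HuT-78 (74.8%). These shares are near those of genes at large, so differing between lines is no mark of the members. Untreated levels also moved between the days. In MJ SOCS2 rose by 0.69 ± 0.09 and SOCS4 by 0.69 ± 0.13 from day 4 to day 8, making 2 of 10 members where 1.61% of all genes were called. With averaged probe sets both values were smaller and not called (0.43, adjusted p = 0.0563 for SOCS2, and 0.42, 0.159 for SOCS4, limma). In MY-LA SOCS2 rose by 0.32 ± 0.09 (1 of 9 members, 13.1% of all genes), and this call was lost without array 1 or 2 of day 4 (adjusted p = 0.0509 and 0.103) or array 4 of day 8 (0.0762). SOCS2 of MY-LA was the member whose untreated direction between the days turned when its probe sets were averaged, to -0.12. In HuT-102 SOCS1 rose by 0.59 ± 0.17 (1 of 10 members, 8.69% of all genes), a call lost without array 2 or 3 of day 4 (adjusted p = 0.0519 and 0.0658) or array 4 of day 8 (0.0603).

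**Figure D1:**
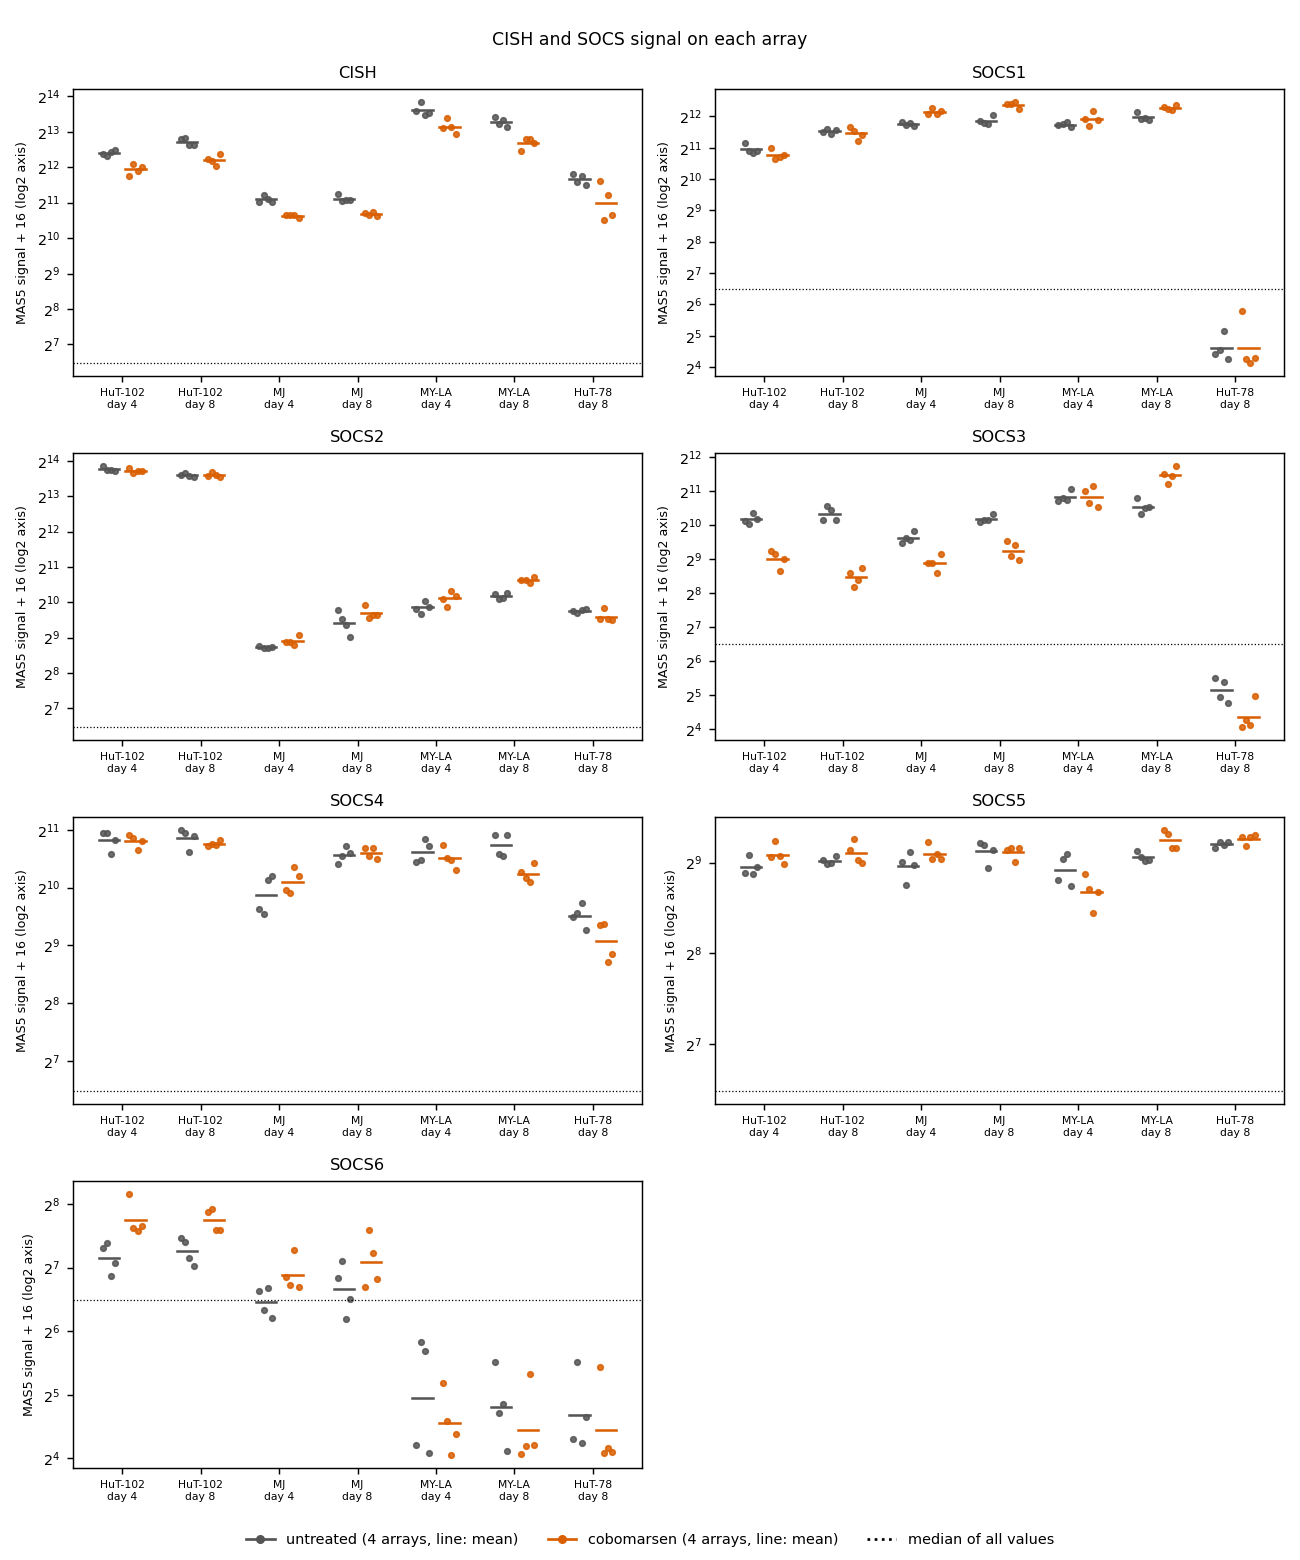
Signal of the probe set used for CISH and each SOCS gene, plotted as signal + 16 on a log2 axis, for each of the 4 arrays of every group of line and day; grey points are untreated wells, orange points cobomarsen, short lines the means of log2 values and the dotted line the median of all values. CISH is lower with cobomarsen in each line, SOCS3 falls in HuT-102 and MJ and rises in MY-LA at day 8, and SOCS1 and SOCS3 lie below the dotted line in HuT-78.

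With cobomarsen CISH fell in all 4 lines, and PIM1 fell in HuT-102, MJ and MY-LA. SOCS3 fell in HuT-102 and MJ and rose in MY-LA at day 8. SOCS1 and SOCS2 rose in some comparisons and were called lower in none. Of 65 pairs of a member and a comparison that were tested, 25 were called lower and 6 higher. Of all genes in these comparisons 15.7% were called lower and 14.9% higher. The pairs repeat the same 10 genes, so they are not independent. CISH gave 7 of the lower calls, PIM1 6 and SOCS3 4. Of the members tested, 3 of 10 were called in HuT-102 at day 4 (23.0% of all genes tested) and 4 of 10 at day 8 (40.1%). In MJ 4 of 10 were called at day 4 (27.2%) and 6 of 10 at day 8 (33.6%), and in MY-LA 5 of 9 at day 4 (26.3%) and 6 of 9 at day 8 (41.7%). In HuT-78 3 of 7 were called (22.1%). The median change of the members tested was between -0.29 and -0.02 over the 7 comparisons, and that of all genes tested between -0.05 and 0.02.

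**Figure D2:**
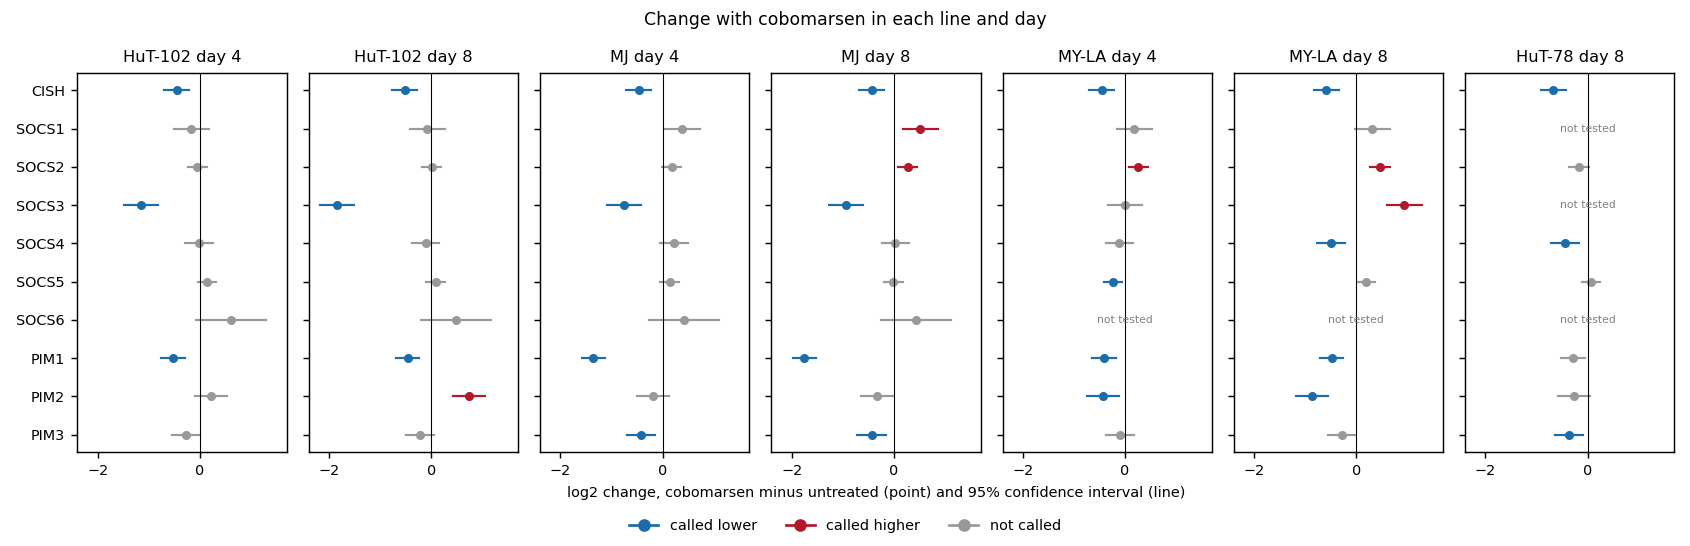
Change with cobomarsen for each member in each line and day, on the log2 scale, with its 95% confidence interval from the limma fit; blue is called lower, red called higher and grey not called. CISH lies left of 0 in all 7 comparisons, from -0.67 to -0.43, and SOCS3 spans -1.85 to 0.94.

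CISH was called lower in all 7 comparisons. In HuT-102 at day 4 the untreated arrays read 5121, 5252, 5449 and 5710.0 and the cobomarsen arrays 3462, 3795, 4065 and 4386. At day 8 they read 6279, 6359.9, 7051 and 7230.5 against 4160.0, 4576, 4783 and 5257. All arrays with cobomarsen lay below all without, and the changes were -0.46 ± 0.12 and -0.52 ± 0.12 (limma adjusted p = 0.00390 and 4.42e-04). In MJ the day 4 signals were 2063, 2076, 2193 and 2361 without and 1494, 1580.2, 1580.2 and 1599 with cobomarsen. At day 8 they were 2100.4, 2133, 2149 and 2404 against 1574, 1579, 1661 and 1687. The groups were again apart, with changes of -0.47 ± 0.12 and -0.43 ± 0.12 (adjusted p = 0.00236 and 0.00443). In MY-LA, the line with the most CISH, the signals fell from 11425, 11744, 12196 and 14696 to 7767, 8880.3, 9023 and 10752 at day 4. They fell from 8895, 9498, 10223 and 11016 to 5655, 6580.3, 7037 and 7105 at day 8. These groups did not overlap, and the changes were -0.46 ± 0.12 and -0.59 ± 0.12 (adjusted p = 0.00329 and 8.83e-05).

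HuT-78 was less even for CISH, and its arrays with cobomarsen were uneven as a whole. Its untreated arrays read 2873, 3072, 3465 and 3573, and its cobomarsen arrays 1439, 1578, 2341 and 3138. The highest cobomarsen array, array 1, lay inside the untreated range and the other 3 lay below it. Array 1 also stood apart in the upper quartile of all signals, at 429.5 against 377 to 382 on the other 3, where the untreated arrays had 419.9 to 441, and the part of this in the HuT-78 called changes of CISH, SOCS4 and PIM3 was not tested. The change was -0.67 ± 0.12 (limma adjusted p = 2.24e-04), it was -0.88 without array 1, and it was not called when the model held the 8 HuT-78 arrays alone (adjusted p = 0.145). The 2 other CISH probe sets gave the same direction in all 7 comparisons. One was called lower in all 7, by 0.39 to 0.72 in size. The other was called lower in 5, with -1.15 ± 0.16 in HuT-78 and no overlap there. It was not called in HuT-102 at day 4 (-0.39 ± 0.16, adjusted p = 0.0925) and MY-LA at day 4 (-0.17 ± 0.16, adjusted p = 0.495). The change of CISH at day 8 did not pass the test of a difference between the 4 lines (limma moderated F-test, adjusted p = 0.598), but did without array 1 of HuT-78 with cobomarsen (adjusted p = 0.0330).

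SOCS3 changed in opposite directions in different lines. In HuT-102 at day 4 the untreated arrays read 1034, 1094, 1147 and 1306 and the cobomarsen arrays 385, 498, 557 and 594. At day 8 they read 1119.2, 1119.6, 1376 and 1488 against 273, 318, 369 and 415. SOCS3 was thus 2.23-fold lower at day 4 and 3.60-fold lower at day 8 (changes of -1.16 ± 0.17 and -1.85 ± 0.17, limma adjusted p = 2.80e-07 and 1.70e-13). In MJ the signals went from 691, 738, 775 and 899.9 to 367, 455, 457 and 554 at day 4. They went from 1085, 1119.9, 1132 and 1279 to 491, 529, 666 and 721 at day 8. The MJ groups were apart at both days, by -0.75 ± 0.17 and -0.94 ± 0.17 (adjusted p = 3.81e-04 and 8.64e-06). The day 4 call was lost with log2(signal + 1) (adjusted p = 0.0536) and when all probe sets were averaged (-0.27, adjusted p = 0.252).

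In MY-LA, SOCS3 at day 4 read 1668, 1695, 1758 and 2141 without cobomarsen and 1462, 1595, 2038 and 2261 with it. These groups overlapped, with a change of 0.0036 ± 0.17 (95% confidence interval -0.33 to 0.34). At day 8 the untreated arrays read 1275, 1440.3, 1467 and 1752 and the cobomarsen arrays 2383, 2774, 2908 and 3423. SOCS3 was 1.92-fold higher there, with no overlap (0.94 ± 0.17, limma adjusted p = 6.22e-06). In HuT-78, where it was not tested, it read 20.3 ± 8.71 without and 5.14 ± 6.67 with cobomarsen, and the groups overlapped. Of the other SOCS3 probe sets, one was called lower in HuT-102 at both days (-0.73 ± 0.21 and -0.76 ± 0.21) and in MJ at day 8 (-0.55 ± 0.21). It was not called in MY-LA at day 8 (0.38 ± 0.21, adjusted p = 0.152), where another was called higher (1.21 ± 0.36, adjusted p = 0.00561). In MY-LA at day 4 both had negative changes, unlike the probe set used, and were not called. The former gave -0.39 ± 0.21 with no overlap (adjusted p = 0.172) and the latter -0.72 ± 0.36 with overlap (adjusted p = 0.143).

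The difference between lines was itself tested. SOCS3 differed at day 8 over the 4 lines, HuT-78 with its low signals included (limma moderated F-test, adjusted p = 1.90e-13). Its change was lower in HuT-102 than in MY-LA by 2.79 ± 0.24, lower in MJ than in MY-LA by 1.88 ± 0.24 and lower in HuT-102 than in MJ by 0.91 ± 0.24. The last was not called with log2(signal + 1) (adjusted p = 0.0984) or with averaged probe sets (adjusted p = 0.0617). In MY-LA the SOCS3 change at day 8 exceeded that at day 4 by 0.94 ± 0.24 (adjusted p = 0.00364), but not past the threshold with log2(signal + 1) (adjusted p = 0.123). In HuT-102 the day 8 change was further down by 0.69 ± 0.24 (adjusted p = 0.0636). That difference was called without array 3 of the day 4 cobomarsen group (adjusted p = 0.0265) or array 4 of the day 8 one (0.0414).

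SOCS1 rose in MJ. At day 8 the untreated arrays read 3412, 3489.7, 3695 and 4180.3 and the cobomarsen arrays 4809, 5343, 5365 and 5628, so the groups were apart. The change was 0.52 ± 0.17, or 1.43-fold (limma adjusted p = 0.0155). A second SOCS1 probe set was called higher there (0.51 ± 0.17, adjusted p = 0.0222), while another was not (0.06 ± 0.27). At day 4 the MJ arrays read 3317, 3376, 3529 and 3580.4 without and 4286, 4305, 4567 and 4929 with cobomarsen. These did not overlap either, but the change of 0.39 ± 0.17 was not called (adjusted p = 0.0903). The MY-LA arrays of day 8 read 3789, 3820.0, 3897 and 4445 against 4723, 4841, 4967 and 5263, again with no overlap and not called (0.31 ± 0.17, adjusted p = 0.144).

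The pooled spread of SOCS1 includes the HuT-78 arrays, which read from 1.71 to 39.6, where small differences in signal are large on the log2 scale. With only the arrays compared in the model, SOCS1 was called higher in MJ at day 4 (adjusted p = 3.09e-04) and in MY-LA at day 8 (0.00216). With log2(signal + 64) the adjusted p were 0.00220 and 0.00967. The MJ day 8 call was lost with log2(signal + 1) (0.302) and with averaged probe sets (0.0883). In HuT-102 SOCS1 changed by -0.17 ± 0.17 at day 4 and -0.08 ± 0.17 at day 8, with overlapping groups and no call. In MY-LA at day 4 the change was 0.18 ± 0.17 (adjusted p = 0.493), and in HuT-78 SOCS1 stood at 9.03 ± 7.46 without and 11.97 ± 18.4 with cobomarsen. The SOCS1 change at day 8 did not pass the test between the 4 lines (limma moderated F-test, adjusted p = 0.0971), but did without array 1 of HuT-78 with cobomarsen (9.32e-06).

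SOCS2 rose most clearly in MY-LA at day 8. Its untreated arrays read 1068, 1088, 1177 and 1216 and its cobomarsen arrays 1486, 1555, 1584 and 1659. The groups were apart, with a change of 0.46 ± 0.09 (limma adjusted p = 7.34e-05), and a second probe set was called higher as well (0.63 ± 0.12). SOCS2 was called higher in MY-LA at day 4 by 0.26 ± 0.09 (adjusted p = 0.0353) and in MJ at day 8 by 0.27 ± 0.09 (adjusted p = 0.0211), both with overlapping groups. Averaging all probe sets turned these 2 changes to -0.02 and -0.08. The MJ call was lost without cobomarsen array 1 (adjusted p = 0.147) or untreated arrays 3 or 4 (0.0590 and 0.270). The MY-LA day 4 call was lost without cobomarsen arrays 3 or 4 (0.177 and 0.0920) or untreated arrays 1, 2 or 4 (0.0776, 0.160 and 0.0506). In HuT-102, where SOCS2 was highest, the signals ranged from 11871 to 12860.0 without and from 11924 to 13165 with cobomarsen at day 8, a change of 0.0066 ± 0.09 (95% confidence interval -0.18 to 0.20). In HuT-78 the change was -0.17 ± 0.09 (adjusted p = 0.206). The difference of the SOCS2 change between the 4 lines at day 8 was called (limma moderated F-test, adjusted p = 2.78e-04).

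At day 8 the arrays with cobomarsen had a higher upper quartile of signal in HuT-102 (448 against 422) and in MJ (448.2 against 429.8), with no overlap. The GAPDH 3′ to 5′ signal ratio was also higher with cobomarsen in MJ at day 8 (0.930 against 0.911). Their part in the day 8 changes of SOCS1 and SOCS2 in MJ, and of PIM2 in HuT-102, was not tested. Under quantile normalization no called change of a member turned its sign, but SOCS4 in HuT-78 (-0.32, limma adjusted p = 0.0780) and SOCS5 in MY-LA at day 4 (-0.21, 0.0687) lost their calls. So did the difference of the SOCS5 change between the days of MY-LA (0.34, 0.0584).

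SOCS4 and SOCS5 are members with a long amino-terminal part that have been tied to growth factor receptor signalling. SOCS4 fell in MY-LA at day 8, from 1481, 1512, 1908 and 1915 to 1083, 1136, 1223 and 1359.6, with no overlap (-0.49 ± 0.13, limma adjusted p = 0.00203). It was also called lower in HuT-78 (-0.44 ± 0.13, adjusted p = 0.0131), where the groups overlapped and the call was lost without cobomarsen array 3 or 4 (0.0976 and 0.0773) or untreated array 3 (0.0673). It was also lost with only the arrays compared (0.168) and with averaged probe sets (-0.18, 0.441). In the other 5 comparisons the change lay between -0.11 and 0.23. A second SOCS4 probe set was called lower in MJ at day 4 (-0.63 ± 0.23, adjusted p = 0.0444), where the one used gave 0.23 ± 0.13. In MJ at day 8 this second probe set gave -0.58 ± 0.23 with no overlap and was not called (limma adjusted p = 0.0553). The one used gave 0.03 ± 0.13 there.

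The SOCS5 probe sets disagreed. The one used was called lower in MY-LA at day 4, from 411, 432, 509 and 529 to 334, 392, 402 and 454, with overlap (-0.24 ± 0.09, limma adjusted p = 0.0383). That call was lost without cobomarsen arrays 2, 3 or 4 (0.0523, 0.202 and 0.0667) or untreated arrays 2 or 3 (0.135 and 0.164). It was not called in the other 6 comparisons, among them MJ at day 8 (-0.0073 ± 0.09). There a second probe set was called higher by 0.67 ± 0.12 and the other by 0.66 ± 0.18, both with no overlap. They were also called higher in MJ at day 4 (0.34 ± 0.12 and 0.49 ± 0.18), and the second one in HuT-102 at day 8 (0.40 ± 0.12). The mean of the probe sets in MJ at day 8 was higher by 0.44 (adjusted p = 3.40e-04), so the SOCS5 call in MJ depends on the probe set.

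**Figure D3:**
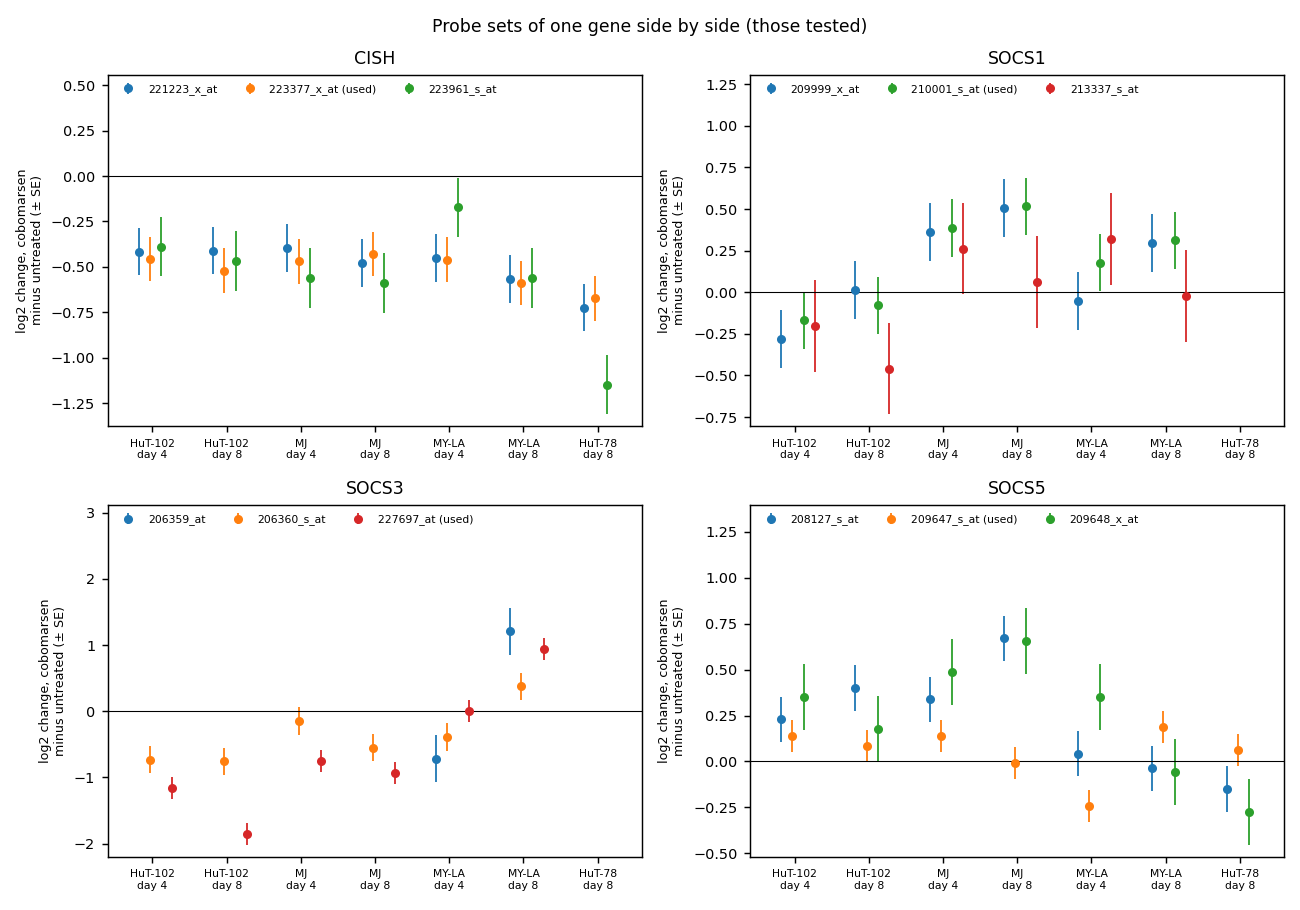
Change with cobomarsen on the log2 scale, with its standard error, for each tested probe set of CISH, SOCS1, SOCS3 and SOCS5 in the 7 comparisons; each colour is 1 probe set and the one used for the gene is named in the legend. The CISH probe sets all lie below 0, while those of SOCS5 in MJ at day 8 lie at -0.0073, 0.66 and 0.67.

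SOCS6, which is known to act on receptor tyrosine kinases, had low signals and was called in no comparison (limma, 0 of 4 tested, and 0 at an unadjusted p under 0.05). In HuT-102 at day 4 it read 100.3, 119, 142 and 150.3 without and 175, 179.9, 185 and 269.5 with cobomarsen. At day 8 it read 114, 126, 153 and 161 against 177, 177, 219 and 226. The arrays did not overlap at either day, but the pooled standard error was large (0.60 ± 0.34 and 0.48 ± 0.34, limma adjusted p = 0.220 and 0.278). With log2(signal + 64) the day 4 change was called (0.47, adjusted p = 0.0284), and with averaged probe sets the day 8 change (0.55, adjusted p = 0.0291). In MJ the signal was 73.0 ± 13.95 against 104 ± 23.6 at day 4 and 87.9 ± 28.2 against 124 ± 40.3 at day 8. MY-LA and HuT-78 lay at means between 7.50 and 20.1 and were not tested.

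PIM1, a survival kinase that acts with MYC in lymphoid tumours, fell most in MJ. At day 4 its untreated arrays read 2300.2, 2393, 2783 and 2886 and its cobomarsen arrays 864, 956, 1081 and 1115. At day 8 they read 1904, 2043, 2257 and 2322 against 558, 619, 622 and 679. PIM1 was thus 2.56-fold and 3.38-fold lower in MJ, with no overlap (-1.35 ± 0.11 and -1.76 ± 0.11, limma adjusted p = 3.66e-14 and 1.75e-18). In HuT-102 the signals went from 808, 822, 887 and 888 to 551, 580.0, 601 and 603 at day 4. At day 8 they went from 850.3, 883, 967 and 989 to 557, 605, 679.9 and 845, the highest just below the lowest untreated array. The changes in HuT-102 were -0.53 ± 0.11 and -0.46 ± 0.11 (adjusted p = 2.95e-04 and 7.54e-04).

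In MY-LA PIM1 read 1658, 1662, 1793 and 2299 without and 1268, 1272, 1401 and 1579 with cobomarsen at day 4. At day 8 it read 1633, 1703, 1945 and 1961 against 1175, 1236, 1306 and 1433. The groups were apart at both days, with changes of -0.41 ± 0.11 and -0.49 ± 0.11 (limma adjusted p = 0.00450 and 4.21e-04). In HuT-78 the groups overlapped, at 1527, 1931, 2068 and 2193 against 1311, 1481, 1566 and 1971. The change there was -0.29 ± 0.11 and was not called (adjusted p = 0.0614). It was called without array 1 of the cobomarsen group (-0.40, adjusted p = 0.00642), without array 4 of the untreated group (-0.39, adjusted p = 0.0116) and with the filter at the 75th percentile of signal (0.0494). The day 8 change of PIM1 differed between the 4 lines (limma moderated F-test, adjusted p = 3.16e-11). In MJ it was lower than in HuT-102 by 1.29 ± 0.16 and lower than in MY-LA by 1.27 ± 0.16 (adjusted p = 5.63e-09 and 8.09e-09). HuT-102 and MY-LA differed by 0.02 ± 0.16 (adjusted p = 0.925). PIM1, PIM2 and PIM3 have 1 probe set each, so no second one could be compared.

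PIM2, a kinase that helps keep translation and survival going, moved in opposite directions in HuT-102 and MY-LA. In HuT-102 at day 8 it rose from 1339, 1519, 1737 and 1940.0 to 2293, 2666, 2777 and 3227, with no overlap (0.74 ± 0.16, limma adjusted p = 9.50e-05). PIM2 of MY-LA at day 8 fell from 3904, 4513, 4715 and 6654 to 2559, 2584, 2593 and 2822, also with no overlap (-0.87 ± 0.16, adjusted p = 7.25e-06). The test of the difference between these 2 lines gave 1.62 ± 0.22 (adjusted p = 3.11e-08), and HuT-102 exceeded MJ by 1.07 ± 0.22 (1.35e-04). PIM2 was also called lower in MY-LA at day 4 (-0.43 ± 0.16, adjusted p = 0.0351) with overlapping groups. That call was lost without cobomarsen array 2 or 4 (0.0686 and 0.294) or untreated array 3 or 4 (0.126 and 0.0596). In MJ the change was -0.18 ± 0.16 at day 4 and -0.33 ± 0.16 at day 8. The MJ day 8 groups were apart and not called (adjusted p = 0.102; 0.0125 with only the arrays compared).

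PIM3, the remaining PIM kinase, fell in MJ. Its signals went from 4913, 6101, 6135 and 6430.2 to 4233, 4320.4, 4417 and 4619 at day 4, and from 5392, 5403, 5796 and 6238 to 4041, 4092, 4225 and 4485 at day 8. The groups were apart at both days (-0.41 ± 0.14 and -0.44 ± 0.14, limma adjusted p = 0.0185 and 0.0105). The day 4 call was lost without array 3 of the untreated group (-0.37, adjusted p = 0.0612). In HuT-78 PIM3 was called lower by 0.36 ± 0.14 in size (adjusted p = 0.0487), with overlapping groups. That call was lost in 6 of the arrays left out, cobomarsen arrays 2, 3 and 4 and untreated arrays 1, 2 and 3 (adjusted p from 0.0582 to 0.230), and under 6 other alternatives. In HuT-102 and MY-LA the 4 changes lay between -0.27 and -0.09 and were not called. The PIM3 change did not pass the test between lines (limma moderated F-test, adjusted p = 0.740).

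**Figure D4:**
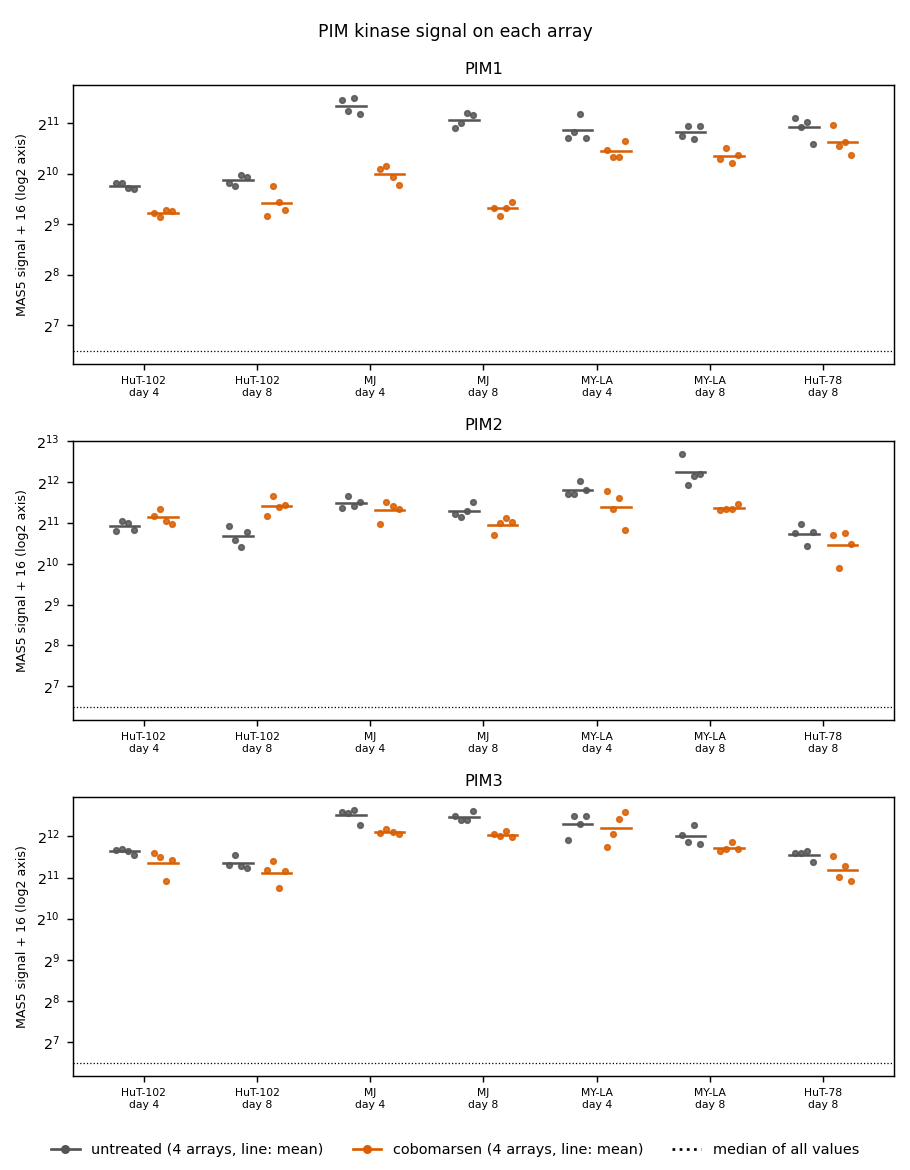
Signal of PIM1, PIM2 and PIM3, plotted as signal + 16 on a log2 axis, for each of the 4 arrays of every group of line and day; grey points are untreated wells, orange points cobomarsen, and short lines the means of log2 values. PIM1 is lowest with cobomarsen relative to untreated wells in MJ, and PIM2 is higher in HuT-102 at day 8 and lower in MY-LA at day 8.

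Counts of calls in HuT-78 and in MY-LA at day 4 depended on single arrays. In HuT-78 1 member, CISH, was called without cobomarsen array 3 or 4 or untreated array 3, and 4 without cobomarsen array 1 or untreated array 4. The MY-LA count at day 4 was 2, CISH and PIM1, without cobomarsen array 4. It was 3 without cobomarsen array 2 or 3 or untreated array 2, 3 or 4, with CISH and PIM1 among them each time.

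The change with cobomarsen was also compared between the days and the lines. In HuT-102 no member differed between day 8 and day 4 (limma, 0 of 10, with SOCS3 and PIM2 at an unadjusted p under 0.05), where 7.18% of all genes did. In MJ none of 10 did, with PIM1 at an unadjusted p under 0.05, where 1.35% of all genes did. In MY-LA 2 of 9 did, SOCS3 and SOCS5, against 17.0% of all genes. SOCS5 had gone from -0.24 to 0.19, a difference of 0.43 ± 0.13 (adjusted p = 0.0140), and averaged probe sets turned this to -0.02. Over the 4 lines 5 of 9 members differed at day 8, SOCS2, SOCS3, SOCS4, PIM1 and PIM2, where 64.7% of all genes did. SOCS5 was not among them (limma moderated F-test, adjusted p = 0.544), but it was called with averaged probe sets (adjusted p = 0.00330). For SOCS4 the adjusted p was 0.0285, it was 0.765 with averaged probe sets, and it was 0.0501 to 0.0600 without array 3 of MJ or of MY-LA with cobomarsen, array 1 of untreated MJ, or array 1 or 4 of untreated MY-LA.

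Between pairs of lines 3 of 10 members differed for HuT-102 and MJ (28.0% of all genes), SOCS3, PIM1 and PIM2. They were 3 of 9 for HuT-102 and MY-LA (38.8%), SOCS2, SOCS3 and PIM2. For MJ and MY-LA they were 4 of 9 (33.6%), SOCS3, SOCS4, PIM1 and PIM2. Of these, SOCS4 (0.53 ± 0.19, limma adjusted p = 0.0250) and PIM2 (0.55 ± 0.22, adjusted p = 0.0494) were both lost without array 1 of untreated MJ (0.0599 and 0.0818) or array 1 or 4 of untreated MY-LA (0.0593 and 0.0615 for SOCS4, 0.169 and 0.0596 for PIM2). They were also both lost without array 3 of MY-LA with cobomarsen (0.0564 and 0.0717). PIM2 was lost in 7 other single-array omissions, of MJ cobomarsen arrays 2, 3 and 4, MJ untreated arrays 2 and 3 and MY-LA cobomarsen arrays 1 and 2 (0.0667 to 0.100). It was also lost with log2(signal + 1), no filter, averaged probe sets, each probe set as a feature and no intensity trend (0.0537 to 0.0768). PIM2 has 1 probe set, and its difference was 0.55 in each of these settings. SOCS4 was lost with averaged probe sets (0.11, adjusted p = 0.735).

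The other genes of the pathway give the setting of these changes. Of 9 Janus kinase and STAT genes tested, 4 were called higher and 1 lower in HuT-102 at day 8, and 1 higher and 3 lower in MJ at day 8. Of all genes 18.9% were called higher and 21.2% lower in HuT-102 at day 8, and 15.1% and 18.5% in MJ at day 8. STAT3, which carries IL-6 and IL-10 family signals, was lower in all 6 comparisons of HuT-102, MJ and MY-LA. In MJ at day 8 it went from 7001 ± 127 to 2538 ± 120 (-1.46 ± 0.09, limma adjusted p = 3.22e-19), and its smallest change was -0.33 ± 0.09 in HuT-102 at day 4. STAT5A fell in MJ by 0.74 ± 0.10 and 0.65 ± 0.10 and rose in HuT-102 at day 8 by 0.59 ± 0.10. STAT5B rose in MJ by 0.39 ± 0.10 and 0.31 ± 0.10 and fell in MY-LA by 0.58 ± 0.10 and 0.59 ± 0.10. The kinase TYK2 rose in HuT-102 by 0.87 ± 0.10 and 1.23 ± 0.10. In HuT-78 3 of the 9 were lower and none higher, where 11.4% of all genes were lower and 10.7% higher. These were JAK3 (-0.60 ± 0.13), TYK2 (-0.49 ± 0.10) and STAT5A (-0.30 ± 0.10).

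In MJ at day 4 9 of 11 cytokine genes tested were lower and none higher, where 14.2% of all genes were lower. The median change of these genes was -1.24, beside 0.0022 for all genes. At day 8 in MJ 8 of 12 were lower and 2 higher, where 18.5% of all genes were lower. In MY-LA at day 8 4 of 6 were lower and none higher, where 18.2% of all genes were lower. A gene was tested on the mean of both groups, so some passed through their untreated signal alone. In MJ these include IL4 at day 4 (261 ± 77.7 without and 34.8 ± 20.7 with cobomarsen) and IL26 at day 8 (679 ± 62.2 and 55.0 ± 18.9). Their part in these counts and in the median was not tested. IL6, whose receptor signals through STAT3, fell in all 6 comparisons of HuT-102, MJ and MY-LA, by 0.58 ± 0.22 to 2.39 ± 0.22. IL15, a STAT5 cytokine, fell in MY-LA by 0.62 ± 0.10 and 1.79 ± 0.10. OSM rose in MJ at day 8 (1.51 ± 0.20), and IL13 in HuT-102 at day 8 (1.31 ± 0.15).

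Receptor chains went both ways, with 9 of 18 higher and 6 lower in HuT-102 at day 8 and 7 of 16 each way in MY-LA at day 8, where 23.5% of all genes were higher and 18.2% lower. In HuT-102 at day 8 those shares were 18.9% and 21.2%. IL6ST, the gp130 chain shared by IL-6 type cytokines, rose in MJ (0.83 ± 0.14 at day 4, and from 380.1 ± 37.8 to 778 ± 93.0 at day 8) and in MY-LA (0.96 ± 0.14 and 0.89 ± 0.14). IL2RB, the signalling chain for IL-2 and IL-15, fell in MJ (-1.18 ± 0.16 and -1.32 ± 0.16) and rose in MY-LA at day 8 (0.57 ± 0.16). IL2RA rose in MJ by 0.62 ± 0.09 and 0.52 ± 0.09 and fell in HuT-102 at day 8 by 0.60 ± 0.09. In HuT-102 OSMR fell at day 8 by 1.75 ± 0.38. In HuT-78 2 of 15 chains were higher and 4 lower, where 10.7% and 11.4% of all genes were. IL6ST fell there by 0.44 ± 0.14 and IL2RB by 0.56 ± 0.16, while IL2RA rose by 0.28 ± 0.09.

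Other inhibitors of the pathway were mixed in HuT-102, MJ and MY-LA. Of 11 or 13 tested, 2 to 4 were called higher and 1 to 4 lower. In these 6 comparisons 23.0% to 41.7% of all genes were called in either direction. The ubiquitin ligase gene CBL rose in all 6 of these comparisons, by 0.39 ± 0.09 to 0.96 ± 0.09, and fell in HuT-78 by 0.40 ± 0.09. CBLB fell in all 6, by 0.50 ± 0.11 to 1.06 ± 0.11. In HuT-78 4 of 13 inhibitors tested were lower and none higher, where 11.4% of all genes were lower and 10.7% higher. USP18, which damps interferon receptor signalling, fell in HuT-102 at day 8 from 3419 ± 684 to 637 ± 39.6 (-2.37 ± 0.21). Of 9 ubiquitin ligase partners of the SOCS box, 6 were lower and 2 higher in MY-LA at day 8 (18.2% and 23.5% of all genes), with CUL5 at -0.28 ± 0.09 and RNF7 at -0.34 ± 0.08. In HuT-78 4 of the 9 were higher (10.7% of all genes), among them ELOB (0.26 ± 0.07) and ELOC (0.32 ± 0.08). In the other comparisons 1 to 3 of the 9 were called, where 23.0% to 40.1% of all genes were.

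Genes known to respond to STAT5 were called in both directions, with 9 of 18 lower and 3 higher in MJ at day 4 and 8 of 18 higher and 4 lower in HuT-102 at day 8, where 27.2% and 40.1% of all genes were called. BCL2 rose in MJ (0.72 ± 0.11 and 0.60 ± 0.11), and the ERK phosphatase gene DUSP5 fell there (-1.26 ± 0.12 and -1.68 ± 0.12). Genes known to respond to STAT3 had 8 of 12 lower and 1 higher in MJ at day 4, and 5 of 14 lower and 4 higher in HuT-102 at day 8. Of all genes 14.2% and 21.2% were lower there, and 27.2% and 40.1% were called in either direction. The list had 6 of 14 lower and 2 higher in MJ at day 8, and 3 of 14 lower and 5 higher in HuT-102 at day 4. In MY-LA 4 of 12 were lower and 2 higher at both days, and in HuT-78 1 of 11 was lower and none higher. In these further comparisons 22.1% to 41.7% of all genes were called in either direction. TIMP1, an inhibitor of metalloproteinases, fell in the 6 comparisons of HuT-102, MJ and MY-LA by 0.39 ± 0.09 to 2.61 ± 0.09. HIF1A rose in MJ by 0.58 ± 0.07 and 0.75 ± 0.07. These lists share genes such as BCL2L1 and MYC, so they are not separate counts.

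Of 19 genes for PIM kinase substrates, 9 were called higher and 4 lower in HuT-102 at day 8 and 8 higher and 3 lower in MY-LA at day 8. Of all genes 40.1% and 41.7% were called there in either direction. The transcription factor gene MYB rose in the 6 comparisons of HuT-102, MJ and MY-LA, by 0.97 ± 0.09 to 2.05 ± 0.09. FOXO3 rose in HuT-102 (1.10 ± 0.07 and 1.64 ± 0.07) and MJ (0.64 ± 0.07 and 0.73 ± 0.07). CDKN1A, which encodes the cell cycle inhibitor p21, fell in MJ (-0.74 ± 0.08 at both days) and in MY-LA at day 8 (-0.76 ± 0.08). In HuT-78 2 of the 19 were called higher and 1 lower, where 10.7% and 11.4% of all genes were.

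The genes whose pattern was most like a member's were found by Pearson's correlation of the 14 group means of log2 values, over 11713 genes. The 14 points share 4 lines, so they are not independent, and no test was made. For SOCS1 they were IL2RA (0.991), ZEB1 (0.990) and CUEDC2 (0.989). For CISH they were OGFRL1 (0.963), WDR55 (0.958) and MGAT1 (0.955), and for SOCS3 SIAE (0.977), FAM131A (0.971) and EYA3 (0.968). For SOCS2 they were BCAR3 (0.982), PHIP (0.982) and SLC35E3 (0.980). For PIM1 the likeness was weaker, with RIOK1 (0.903), ICE2 (0.901) and EIF2S2 (0.888), and SOCS5 had its best at 0.794 with MICOS10P1. The best were 0.956 for SOCS4 with LY86, 0.940 for PIM2 with DPH7 and 0.947 for PIM3 with ALMS1-IT1. SOCS6 followed HLA-DQB1 at 0.987.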

How the data were processed

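The deposited values are MAS5 signal intensity, one value per probe set and array on a linear scale, which the authors made and scaled per the submitters' processing notes and the values. The trimmed mean (2% from each end) was 500.06 to 500.08 on every array, and the median 56.4 to 91.7. Of 54675 probe sets 62 were controls, 41091 carried 1 gene symbol, 1801 several and 11721 none; only those with 1 symbol were used. Each gene is represented by its brightest probe set (mean of the 56 arrays), and all probe sets of a member were compared.

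The tests used R 4.3.3 and limma 3.58.1. All 56 arrays entered 1 model of the 14 group means of log2(signal + 16), with an intensity trend and 42 residual degrees of freedom. The tests are two-sided, and p-values were adjusted by Benjamini-Hochberg within a comparison, over every gene tested there. Genes below a signal of 73.9 in a group are given by signal. The steps were tested on simulated data. Members, gene lists and tests were chosen with earlier results of these data known. All members are named. In each list and comparison up to 3 called genes at either extreme could be named, and those printed were picked from these with their values known. Listed genes with no probe set of 1 symbol were not analysed here. Figures and sequence searches used Python 3.11.15, NumPy 2.4.6, pandas 2.3.3 and Matplotlib 3.10.9.

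Alternatives were log2(signal + 1) and log2(signal + 64), quantile normalization, a filter at the 75th percentile (signal 422) or none, the mean of all probe sets, each probe set as a feature, a model of only the arrays compared, a model with no intensity trend, and the omission of single arrays. The number of arrays limits the precision. Concentrations were not given in the sources used here.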

Additional observations from a re-analysis of the deposited data

Results flagged for a closer look

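In 8 of 140 groups of 4 arrays examined for the members, the highest array stood apart from the other 3, and chance gives about 1 in 20. CISH read 2404 on 1 array of untreated MJ at day 8, against 2100 to 2149 on the others. SOCS2 read 14797 on 1 array of untreated HuT-102 at day 4 (others 13509 to 13674) and 903 on 1 array of HuT-78 with cobomarsen (others 706 to 718). PIM2 read 2822 on 1 array of MY-LA at day 8 with cobomarsen (others 2559 to 2593). SOCS6 read 270 on 1 array of HuT-102 at day 4 with cobomarsen (others 175 to 185). The other 3 were signals below the median of all values, SOCS1 at 39.6 and SOCS6 at 27.5 in HuT-78 with cobomarsen and SOCS6 at 24.3 in MY-LA at day 8 with cobomarsen.

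The change with cobomarsen differed between day 8 and day 4 in MY-LA for SOCS3 (0.94) and SOCS5 (0.43). It differed between the 4 lines at day 8 for SOCS2, SOCS3, SOCS4, PIM1 and PIM2, with limma adjusted p from the moderated F-test of 2.78e-04, 1.90e-13, 0.0285, 3.16e-11 and 1.85e-07.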

How the results depend on the processing

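No paired analysis was made because the labels give the groups no shared replicate numbers. Running numbers in the titles alternate between untreated and cobomarsen in HuT-102, MJ and HuT-78 but not in MY-LA, and no label says that neighbours belong together, so they were not read as pairs. With log2(signal + 1), log2(signal + 64), quantile normalization and each array left out, no called difference of a member changed sign. Differences not called did so in 1 case with log2(signal + 1), 4 with quantile normalization and 59 with an array left out. The other filters, each probe set as a feature, only the arrays compared and no intensity trend leave the difference itself as it was. Its sign could therefore not change under them. With the mean of all probe sets 32 of 204 differences changed sign, 6 of them called before and 26 not called before. Among these 32, the differences called there or before numbered 10. SOCS2 gave -0.077 in MJ at day 8, -0.0184 in MY-LA at day 4, -0.12 between the untreated days of MY-LA and 0.16 between untreated MJ and HuT-78. SOCS5 gave 0.44 in MJ at day 8, 0.0514 in MY-LA at day 4, -0.0202 for the difference between the days of MY-LA, 0.41 for MJ minus MY-LA at day 8, and -0.35 and 0.25 for untreated MJ minus MY-LA and MY-LA minus HuT-78.

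Counts of members called moved by over 1.5 times as follows. In MY-LA at day 4 the count of 5 became 2 with no filter and with only the arrays compared, and 3 with the mean of all probe sets and with no intensity trend. In HuT-78 the count of 3 became 1 with the mean of all probe sets and 0 with only the arrays compared (limma; 4 had an unadjusted p under 0.05 in the model of all arrays). For HuT-102 minus MY-LA at day 8 the count of 3 became 5 with only the arrays compared. For the difference between days, HuT-102 went from 0 to 1 with log2(signal + 64), the filter at the 75th percentile and quantile normalization, and to 2 with only the arrays compared. MY-LA went from 2 to 1 with log2(signal + 1), quantile normalization and only the arrays compared. Between untreated days, HuT-102 went from 1 to 0 with log2(signal + 1) and the mean of all probe sets, and to 3 with only the arrays compared. MJ went from 2 to 0 and MY-LA from 1 to 0 with the mean of all probe sets. MY-LA also went to 3 with the filter at the 75th percentile and with only the arrays compared, and to 2 with quantile normalization. The causes were not tested.

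With each array left out, the counts ranged from 2 to 5 in MY-LA at day 4 and from 1 to 4 in HuT-78, from 0 to 1 for the difference between days in HuT-102, from 2 to 5 for MJ minus MY-LA at day 8, and from 0 to 1 and 0 to 2 between untreated days in HuT-102 and MY-LA. Genes near background, such as SOCS6 in MY-LA and HuT-78 and SOCS1 and SOCS3 in HuT-78, are limited by their signal.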
